A study of Mus musculus with 13 samples.

Results

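The genes described here encode proteins that build ribosomes in the nucleolus. They were a list of 40 symbols. Of these, 37 had a probe set named to them alone among the 12394 genes on the array, and all 37 were among the 7436 genes bright enough to be tested. Dkc1, Wdr3 and Nob1 had no such probe set. Each gene was followed through the probe set with the highest mean over the 13 arrays.

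All cells were keratinocytes, the chief cell type of the epidermis, taken as primary mouse cultures and infected with a retrovirus that carries ERDNp63a. This is the p63 isoform DNp63alpha joined to a domain of the estrogen receptor, through which tamoxifen can switch the protein on. There was 1 array of untreated cells, which carry the fusion too, and 1 array at every 20 min after tamoxifen up to 240 min. The dose of tamoxifen, the strain and the age of the mice are not given in the sources used here. Cells without the fusion and a course without tamoxifen were not analysed here. A general description attached to every array speaks of tamoxifen, also for the untreated one, whose title was followed.

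Ribosome production begins in the nucleolus, where RNA polymerase I transcribes a long precursor of the ribosomal RNAs. Small nucleolar ribonucleoproteins (snoRNPs) guide chemical changes of that RNA: box C/D particles direct methylation and box H/ACA particles direct pseudouridylation. A large assembly, the small subunit processome, folds and cuts the precursor, and further factors carry the small and large subunits through maturation. In keratinocytes, as in other cells, ribosome production goes with growth, and many of its genes are known targets of the transcription factor MYC.

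From 80 min after tamoxifen, 15 of the 37 genes were lower than in the 4 arrays up to 60 min and 2 were higher. The lower genes were Nop58, Tsr1, Wdr43, Utp18, Nop56, Rrs1, Rrp9, Gnl3, Polr1a, Nop2, Nop14, Bysl, Wdr12, Heatr1 and Nop16. The higher genes were Polr1c and Nop10. The falls were modest, from 1.09-fold for Heatr1, Nop16 and Wdr12 to 1.35-fold for Nop58. The share of lower genes was 40.5%, beside 20.1% of all tested genes, and the share of higher genes was 5.41%, beside 21.7%. The median difference of the 37 genes was -0.067 on the log2 scale, against 0.005 over all tested genes. Of the 37 differences 32 were negative, beside 48.9% of all tested genes. Against the untreated array alone, the median of the 37 genes was -0.072, -0.079 and -0.03 at 80, 100 and 120 min. It lay between -0.008 and 0.03 from 140 to 200 min, and was -0.045 and -0.074 at 220 and 240 min. Over all tested genes it lay between -0.019 and 0.055 from 80 to 240 min. These medians of single arrays have no test.

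These calls come from limma, which set the 9 arrays from 80 to 240 min against the 4 arrays from 0 to 60 min, with p-values adjusted over all tested genes and a threshold of 0.05. The position of this step was chosen with results of these arrays known, so its p-values may be too small. The labels do not say whether the arrays came from separate cultures. With 1 array per time, a p-value reflects the spread among arrays of different times. That spread may be technical, and it also holds any change over time within each group of arrays. Intensities are in the deposited linear units, log2 values are of intensity plus 16, and in bulk RNA fewer cells of a type and less RNA per cell cannot be told apart.

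**Figure D1:**
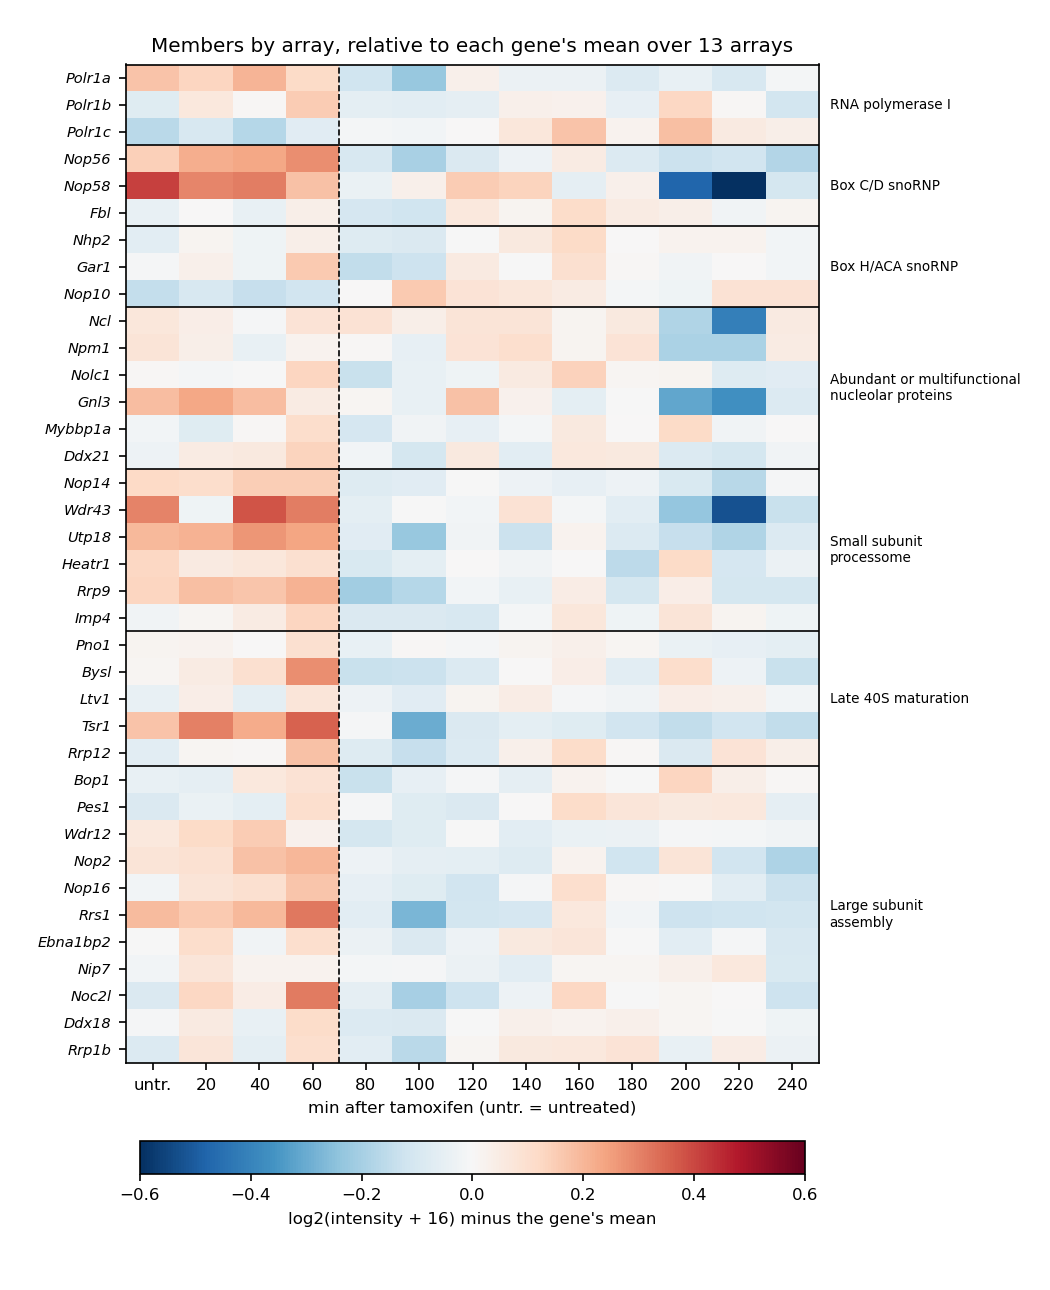
Each row is 1 of the 37 genes, grouped by role, and each column is 1 array by min after tamoxifen. Colour gives log2(intensity + 16) minus the gene's mean over the 13 arrays, and differences past the ends of the scale take the end colour. The dashed line marks the step between the 60 and 80 min arrays. Most rows are redder left of it than right of it, and Nop58, Ncl, Npm1, Gnl3 and Wdr43 are bluest at 200 and 220 min.

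The labelled cell type was checked by its markers. All 8 keratinocyte markers were bright, with a summed intensity of 69985.3 to 72487.8 in the arrays up to 60 min and 69529.5 to 71826.1 later. Of the 8, 3 passed the linear test: Krt5 (0.11) and Trp63 (0.26) were higher and Krt17 (-0.21) was lower. Among melanocyte markers 4 of 5 were on the array, all bright enough to be tested and 0 past the linear test. Their sum was 5607.4 to 6455.8 up to 60 min and 5304.9 to 6032.6 later, and its part in the results was not tested. Of 6 fibroblast markers 1 was bright enough, and of 5 immune and 4 endothelial markers 0 were. Rank correlations between arrays were 0.983 to 0.997, and array medians were 237.4 to 251.5 intensity units.

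Because many genes of the list share a link to MYC, promoters were searched for its E-box, CACGTG, which reads the same on both strands. No other motif was searched. Windows ran from 250 bases before to 50 bases after the RefSeq start site (assembly GRCm38.p6), and 32 of the 37 genes had at least 1. Bop1, Fbl, Npm1, Rrp12 and Rrs1 had none in the table. The E-box stood in 9 of the 32 genes, or 28.1%, beside 12.6% of 6066 tested genes and 8.09% of all 27025 genes with a window. It stood in 4 of 14 genes that were lower from 80 min and in 5 of 18 others, so 28.6% and 27.8%. A match is a run of letters and not a measured binding site. The 30 bases around each match are shown because they include both genes that fell and genes that did not, with the E-box in capitals.

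Nop2: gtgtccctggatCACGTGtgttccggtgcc
Tsr1: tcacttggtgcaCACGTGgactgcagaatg
Utp18: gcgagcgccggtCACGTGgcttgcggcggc
Wdr43: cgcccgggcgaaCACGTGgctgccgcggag
Imp4: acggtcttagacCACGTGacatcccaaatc
Ltv1: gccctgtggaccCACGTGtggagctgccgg
Mybbp1a: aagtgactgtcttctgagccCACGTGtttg
Pes1: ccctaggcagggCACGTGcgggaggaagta
Pno1: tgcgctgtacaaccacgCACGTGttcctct

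The 4 stretches of genes that fell lie at chr6:125131811-125131840 on the plus strand (Nop2), chr11:74898092-74898121 on the plus strand (Tsr1), chr11:93885769-93885798 on the minus strand (Utp18) and chr17:71616220-71616249 on the plus strand (Wdr43). The E-box began 60 bases before the start site in Nop2 and 20 before it in Utp18, and 24 and 17 bases after it in Tsr1 and Wdr43. Those of the other 5 genes lie at chr1:34439696-34439725 on the plus strand (Imp4), chr10:13193092-13193121 on the minus strand (Ltv1), chr11:72441347-72441376 on the plus strand (Mybbp1a), chr11:3963965-3963994 on the plus strand (Pes1) and chr11:17211540-17211569 on the minus strand (Pno1). Imp4 had its E-box 121 bases before the start site, and the other 4 had it between 2 and 40 bases after it.

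RNA polymerase I was measured through 3 subunits, which moved in different directions. Polr1c, a subunit shared with RNA polymerase III, read 1009.9 in untreated cells, 1057.9 at 20 min, 1006.1 at 40 min and 1080.1 at 60 min. In the 9 later arrays its lowest, median and highest values were 1118.5, 1162.1 and 1284.3. All later arrays were thus above all earlier ones. It rose 1.13-fold across the step (a log2 difference of 0.18 ± 0.044, SE over 13 arrays; adjusted p = 0.00397). A second probe set of Polr1c did not pass (0.09, adjusted p = 0.248 when all 20393 single-gene probe sets were fitted). Polr1a, the largest subunit, fell 1.17-fold (adjusted p = 0.000932), from 856.8 to 914.1 up to 60 min to between 673.1 and 808.3 later. Its other probe sets were not called across the step (-0.11, adjusted p = 0.0512, and -0.07, adjusted p = 0.446, in the fit of all single-gene probe sets), and with the mean over probe sets the difference was -0.14 (adjusted p = 0.0119). Polr1b, the second largest, overlapped between the arrays before and after the step (-0.05, not called).

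Of 3 core proteins of the box C/D snoRNP, the particle of methylation, 2 were lower (Nop56 and Nop58) and Fbl was not called. Nop56 read 3895.3, 4102.4, 4150.3 and 4280.4 from the untreated to the 60 min array, and 3298.9 at 80 min. Its lowest, median and highest later values were 3085.7, 3298.9 and 3649, so the groups did not overlap. It fell 1.24-fold (-0.31 ± 0.040, SE; adjusted p = 0.0000273), and its second probe set fell by 0.31 as well (adjusted p = 0.000122 among all named probe sets).

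Nop58, the partner of Nop56 in the particle, had another course. It read 2465.6, 2268.9, 2296.2 and 2094.2 up to 60 min and between 1009.1 and 2061.1 later, with a median of 1802.1. The groups did not overlap, but the lowest values were those of the 200 min (1324.4) and 220 min (1009.1) arrays, and the 240 min array was back at 1721. Its step was -0.43 ± 0.15 (SE; adjusted p = 0.03), and this call was lost without the untreated (0.0873), the 20 min (0.0631) or the 40 min array (0.0711). Without the 200 and 220 min arrays it was -0.28 (adjusted p = 0.00123). Fbl, the methyltransferase fibrillarin of the same particle, read 4035.6, 4174.7, 4044.7 and 4268.9 up to 60 min and 3836.6 to 4491.3 later, with a median of 4210.6. Its groups overlapped and it was not called in any of the 5 tests.

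Of the box H/ACA proteins, which serve pseudouridylation, Nop10 was the second gene of the list that rose. It read 3395.7, 3505.7, 3401.8 and 3458.6 up to 60 min, and its lowest, median and highest later values were 3678.8, 3925.4 and 4175. All later arrays were above all earlier ones. The rise was 1.13-fold (0.18 ± 0.032, SE; adjusted p = 0.000476), and a second probe set rose too (0.10, adjusted p = 0.0486 among all named probe sets). Nhp2 and Gar1, both core proteins of the particle, overlapped between the groups and were not called.

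Among the abundant or multifunctional nucleolar proteins, Gnl3 (nucleostemin, a nucleolar GTPase) was called lower. It read 3203.1, 3305.2, 3199.8 and 2909.6 up to 60 min and 2172.7 to 3183.3 later, with a median of 2731.1. The groups overlapped, through the 120 min array at 3183.3, and the 200 and 220 min arrays were lowest. The step was -0.24 ± 0.080 (SE; adjusted p = 0.0276), and it was lost without the untreated (0.0691), the 20 min (0.0846) or the 40 min array (0.0723).

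Ncl (nucleolin) and Npm1 (nucleophosmin), abundant RNA-binding proteins of the nucleolus, were not called across the step. Ncl read 8191.6, 8017.3, 7778.2 and 8278.2 up to 60 min, and 5876.6 to 8294.6 later, with a median of 8099.5. Npm1 read 10729.2, 10419.2, 9874.8 and 10325.2, and 8904.5 to 10894.9 later, with a median of 10303.8. In both genes the 200 and 220 min arrays were the lowest. Of the other later arrays, only that of Npm1 at 100 min (9830.5) lay below the range up to 60 min. Nolc1, a snoRNP chaperone, Mybbp1a, which binds transcription factors, and the RNA helicase Ddx21 were not called. Probe sets of a gene did not always move alike. A dim one of Nolc1 was higher across the step (0.25, adjusted p = 0.0101 among all named probe sets). A second one of Ddx21 was lower (-0.24, adjusted p = 0.00421). For Ncl a second one was at -0.25 and not called (adjusted p = 0.052), where the brightest was at -0.07. The remaining ones of Ncl were at 0.04 and -0.03.

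Of 6 measured members of the small subunit processome, which processes the precursor on the way to the small subunit, 5 were lower. Wdr43 read 1489.6, 1187.1, 1572.4 and 1497.8 up to 60 min, and 834.6 to 1283.7 later, with a median of 1157. The 20 min array made the groups overlap. Its step was -0.35 ± 0.096 (SE; adjusted p = 0.00894), and a second probe set was lower by 0.32 on the log2 scale (adjusted p = 0.0257 among all named probe sets). Utp18 read 1595.4, 1616.1, 1677 and 1645.5, and 1188.6 to 1416.9 later, with a median of 1315.6 and no overlap (-0.33 ± 0.043, SE; adjusted p = 0.0000362). Rrp9, which binds the U3 snoRNA, and Nop14 also fell without overlap, by 0.25 and 0.19 on the log2 scale. Heatr1 was lower by 0.13 with overlapping groups, its second probe set was not called (-0.12, adjusted p = 0.116), and its call was lost without the untreated (0.0978), 40 min (0.0623), 60 min (0.0682), 180 min (0.0521) or 220 min array (0.0506) and with quantile normalization (0.056). Imp4 was not called.

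Late maturation of the small subunit was measured through 5 genes, of which 2 were lower. Tsr1, a GTPase-like factor of the last steps, read 1700.6, 1864.2, 1763.3 and 1930 up to 60 min. Later values ran from 1223.5 to 1499.9 with a median of 1392.8, so the groups did not overlap. It fell 1.3-fold (-0.38 ± 0.049, SE; adjusted p = 0.0000272). Bysl (bystin) was lower by 0.16 with overlap, and its second probe set was not called (-0.11, adjusted p = 0.202). Its call was lost without the 40 min (0.0656), 60 min (-0.10, 0.143) or 240 min array (0.0531) and with the mean over probe sets (0.0614). Pno1, Ltv1 and Rrp12 were not called.

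Of 11 factors of large subunit assembly, 4 were lower. Rrs1, which helps bring the 5S particle into the large subunit, read 2188.8, 2134.5, 2194.3 and 2391 up to 60 min, and 1581.5 to 1999.3 later, with a median of 1774.6 and no overlap. It fell 1.24-fold (-0.31 ± 0.050, SE; adjusted p = 0.000188). Nop2, an RNA methyltransferase, fell by 0.20 on the log2 scale and Wdr12, of the complex with Pes1 and Bop1, by 0.13, both without overlap. A dim second probe set of Wdr12 was not called (0.04, adjusted p = 0.571), and its call was lost with the mean over probe sets (-0.05, adjusted p = 0.207). Pes1 and Bop1 were not called, so the 3 proteins of that complex did not share a call, though no test of their difference was made. Nop16 was lower by 0.12, and its call was lost without the 60 min array (0.146) and in 12 other alternatives. Ebna1bp2, Nip7, Noc2l, Ddx18 and Rrp1b were not called. A second probe set of Rrp1b was lower (-0.175, adjusted p = 0.0224 among all named probe sets), and a dimmer one was not called (-0.09, adjusted p = 0.164).

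**Figure D2:**
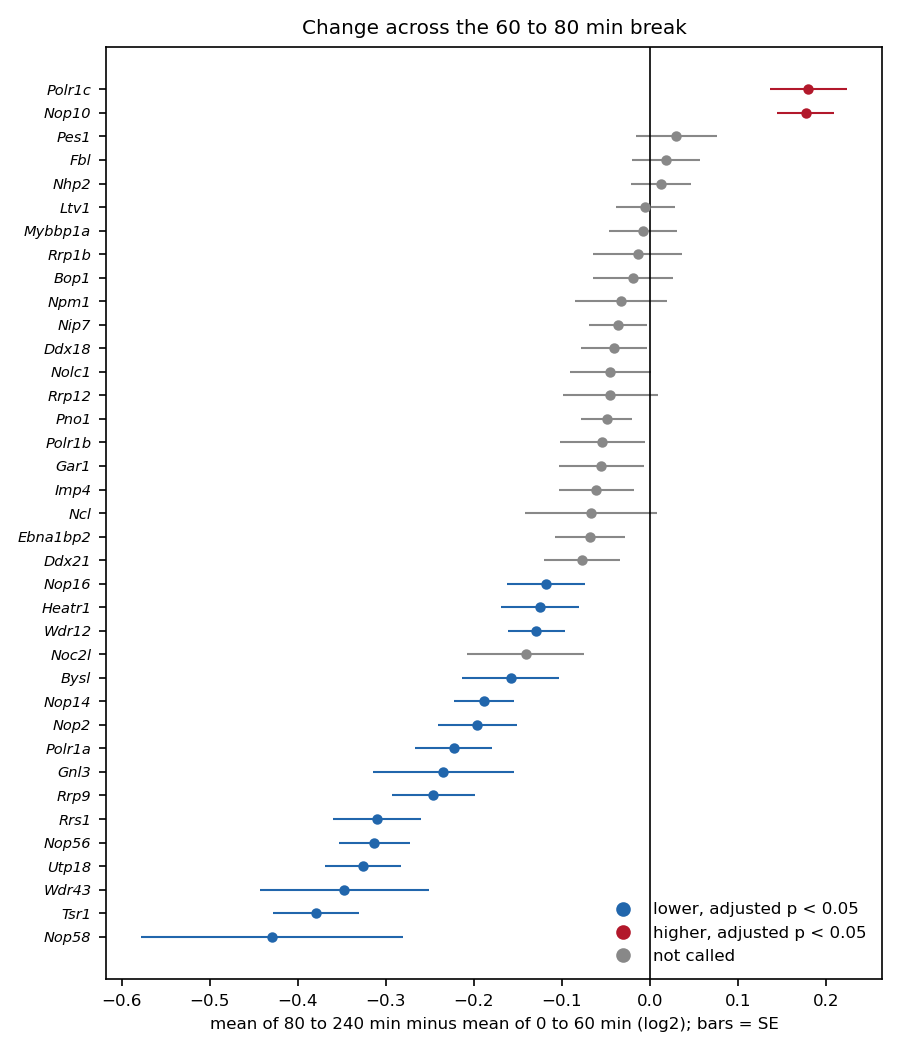
The horizontal axis is the mean of the 80 to 240 min arrays minus the mean of the 0 to 60 min arrays, on the log2 scale, and bars are standard errors from the fit. Blue points passed the threshold as lower, red points as higher and grey points did not pass. The estimates run from -0.43 for Nop58 to 0.18 for Polr1c.

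Separation of the arrays was also counted without a model. In 10 genes all 9 arrays from 80 min were below all 4 arrays up to 60 min: Nop14, Nop2, Nop56, Nop58, Polr1a, Rrp9, Rrs1, Tsr1, Utp18 and Wdr12. This is 27%, beside 11% of all tested genes. The opposite order held for 2 genes, Nop10 and Polr1c, or 5.41%, beside 11.7%.

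**Figure D3:**
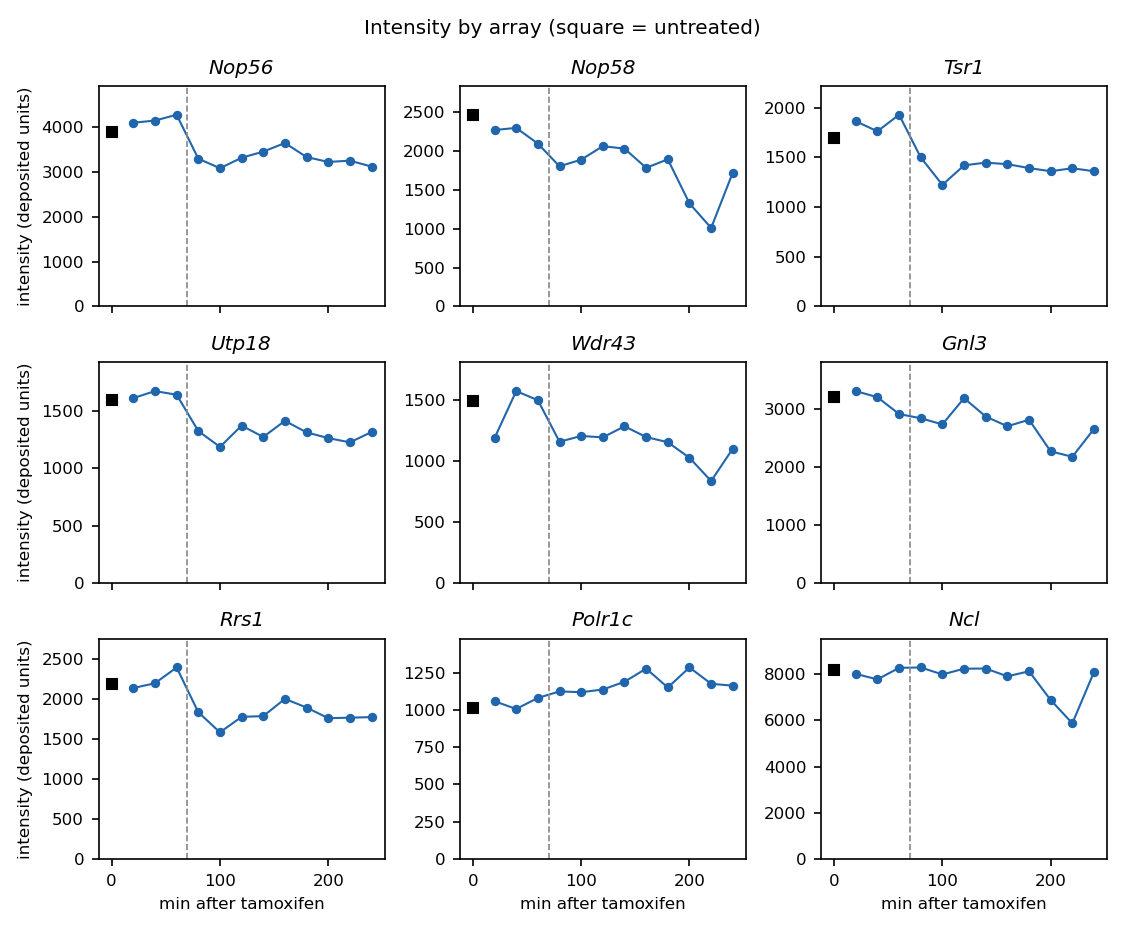
Each panel gives the deposited intensity of 1 gene against min after tamoxifen, with 1 point per array, the untreated array as a square and each vertical axis starting at 0. The dashed line marks the step. Nop56, Tsr1, Utp18 and Rrs1 drop at the line and stay lower, Polr1c is higher after it, and Nop58, Wdr43, Gnl3 and Ncl have their lowest value at 220 min.

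The change from the 60 min array to the next one was shared by most of the list. In 34 of 37 genes the 80 min array was lower than the 60 min array (91.9%), beside 49.9% of all tested genes; the exceptions were Polr1c, Nop10 and Ncl. The median difference was -0.21 on the log2 scale, against 0 over all tested genes. Rrp9 (-0.42), Bysl (-0.41), Rrs1 (-0.38), Nop56 (-0.37), Wdr43 (-0.37), Noc2l (-0.37) and Tsr1 (-0.36) lay below the 5th percentile of all tested genes, -0.33. The 60 min array was also the highest of the 13 in 18 genes (48.6%), beside 7.88% of all tested genes, and its median difference from the untreated array was 0.12, against -0.01. Without the 60 min array, 12 genes in place of 15 were called lower across the step. Over all tested genes it was 1449 in place of 1491.

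**Figure D4:**
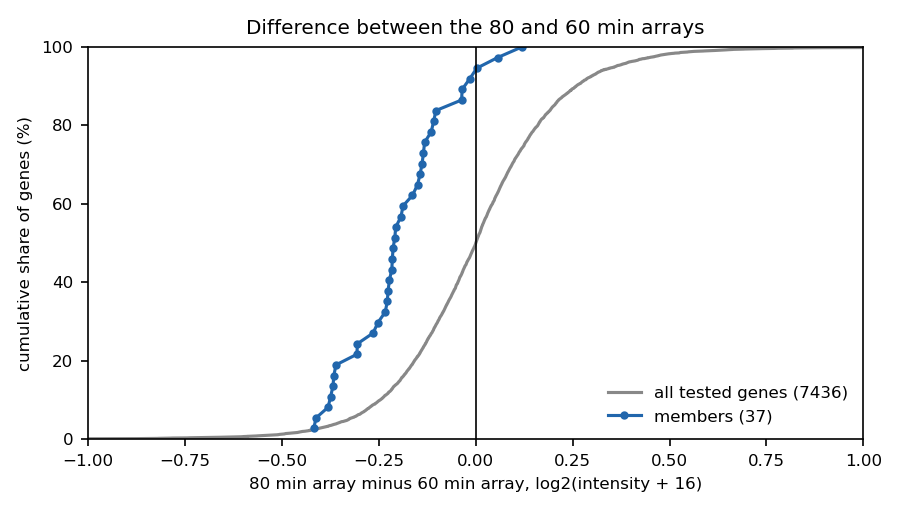
The horizontal axis is the 80 min array minus the 60 min array on the log2 scale, and the vertical axis is the cumulative share of genes in percent. Blue points are the 37 genes and the grey line is all 7436 tested genes. The blue curve crosses its middle near -0.21 and the grey one at 0.

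At 160 min most of the list was higher than at 100 min. The 100 min array held the lowest value of 12 genes and the 80 min array of 6. Late arrays held low points too, the 240 min array for 7 genes and the 220 min array for 6. The share of all tested genes with their lowest value in each array was not counted. From 100 to 160 min the median difference of the 37 genes was 0.16, against -0.01 over all tested genes, and 5 of the 37 differences were negative. For this pair of arrays the share of negative differences over all tested genes was not counted. The largest differences were those of Rrs1 (0.34) and Noc2l (0.32). The counts of this paragraph, of the 60 and 80 min arrays and of the 200 and 220 min arrays compare single arrays, were singled out after the values were seen, and have no test.

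Some genes had their low point later, also among those called lower across the step. In 6 genes, Gnl3, Ncl, Nop14, Nop58, Npm1 and Wdr43, the 200 and 220 min arrays were both below the other 11, or 16.2%, beside 8.61% of all tested genes. Gnl3, Nop14, Nop58 and Wdr43 of these were also called lower across the step. Against the mean of the 180 and 240 min arrays, Nop58 was 1.55-fold lower, Ncl 1.28-fold, Gnl3 1.23-fold, Wdr43 1.21-fold and Npm1 1.2-fold. Nop14 was only 1.08-fold lower. The median of the 37 genes for the same difference was 0.002, against 0.056 over all tested genes, so the list as a whole did not share this low point. The ratio of the 3′ to the 5′ Gapdh control, a sign of RNA integrity, was -0.13 at 200 min and -0.15 at 220 min on the log2 scale, within or at the low end of its range over all arrays (-0.15 to -0.09), and its part in the result was not tested.

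A straight line over all 13 arrays asked which genes changed across the 4 h. It called 9 genes lower, or 24.3%, beside 17.6% of all tested genes, and 2 higher, Polr1c and Nop10, or 5.41%, beside 22.3%. The share of lower genes was thus nearer to the background than for the step. Nop58 fell 1.76-fold over the 4 h (-0.82 ± 0.18, SE, 13 arrays; adjusted p = 0.00236), Wdr43 1.47-fold (adjusted p = 0.00387), Gnl3 1.37-fold (0.00176) and Tsr1 1.36-fold (0.00642). Utp18 fell 1.31-fold, Nop56 1.29-fold, Rrs1 1.26-fold, Nop2 1.19-fold and Nop14 1.17-fold. The median change was -0.086, against 0.019 over all tested genes.

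None of these linear calls was kept in a fit that allowed for the step. With the step as a block beside the line, 0 of the 37 genes were called in either direction and their median change was 0.085, while 1 of all 7436 genes was called. From 80 to 240 min alone the counts were 0 and the median was 0.055, with 5 of all tested genes called. Over those 9 arrays Nop58 still had an estimate of -0.86 (adjusted p = 0.24), Wdr43 -0.49 (0.24) and Gnl3 -0.47 (0.216), whereas Tsr1 and Utp18 were at -0.04 and -0.02. The linear call of Nop10 was lost without the untreated (0.0874), 20 min (0.0562) or 40 min array (0.0587), that of Rrs1 without the untreated (0.0751), 20 min (0.0594) or 40 min array (0.0602), and that of Nop2 without the 240 min array (0.0516). Ncl, at -0.21 and not called, passed without the 240 min array (0.0367). It was at -0.08 (0.373) when the 220 min array was left out. Without the 200 and 220 min arrays the calls of Nop14 (0.0694) and Rrs1 (0.069) were lost. The change of Nop58 was then -0.45 (0.00306) in place of -0.82 and that of Gnl3 -0.29 (0.0111) in place of -0.45, both still called.

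When dim probe sets were kept, 22.4% of the 20393 single-gene probe sets had a linear change past the threshold. The 37 genes had 65 single-gene probe sets in all, called or not, and 22 genes had more than 1. In 5 of these 22 the probe sets differed in the sign of the linear change. A second probe set of Ncl was lower (-0.44, adjusted p = 0.0137) where the brightest one was not called. The remaining ones of Ncl were not called either (-0.145 and -0.162). The dim one of Nolc1 was higher (0.43, adjusted p = 0.00194) against -0.03 for the brightest. A dim one of Pes1 was higher too (0.227, adjusted p = 0.00828), where the brightest was not called (0.092).

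The next contrast took 4 late arrays (180 to 240 min) minus 4 early arrays (20 to 80 min). It called 8 genes lower, the 9 of the line without Nop14, or 21.6% beside 11.1% of all tested genes, and 0 higher beside 15.2%. Tsr1 was at 10.79 ± 0.16 early and 10.44 ± 0.019 late (SD, 4 arrays; adjusted p = 0.00736), and Nop58 at 11.05 ± 0.16 and 10.51 ± 0.40 (adjusted p = 0.0231). The count is not stable. It was 2 without the 20 min array, 1 without the 40 min, 5 without the 60 min and 13 without the 80 min array. It was 5 without the 200 min and 3 without the 220 min array. Over all tested genes 826 were lower with all 13 arrays. In the same order of arrays left out, they were 420, 438, 780, 1238, 715 and 538. The count over all tested genes thus moved in the same direction each time. The 80 min array belongs to the early window by time but lies after the step. The early window against the single untreated array called 0 genes of the list in limma, with 0 also at an unadjusted p under 0.05. Over all tested genes it called 0% higher and 0% lower, and 1.51% had an unadjusted p under 0.05.

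A curved course was tested with a spline of 3 degrees of freedom. It called 7 genes, Gnl3, Nop56, Nop58, Polr1c, Tsr1, Utp18 and Wdr43, or 18.9%, beside 24.9% of all tested genes. In simulated data this test found smooth courses less often than the line found straight ones when changes were small, and it missed a sudden rise and return altogether, so a gene it did not call may still have such a course. Its count was 3 without the untreated array, 2 without the 20 min, 1 without the 40 min and 4 without the 120 min array. It was 3 without the 140 or the 180 min, 4 without the 200 min and 2 without the 220 min array. Of all tested genes, the spline then called 19.4%, 16.7%, 18.7%, 22.5%, 21%, 20.3%, 23.4% and 19.1%, in order of time left out. The share of all tested genes thus fell below 24.9% in each of these settings, as the count of the list fell below 7.

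Other genes of the pathway were taken from lists of 119 symbols outside the 40, of which 97 were on the array and 95 were tested. Across the step 29 of the 95 were lower (30.5%) and 8 higher (8.42%), beside the 20.1% and 21.7% of all tested genes given above. The lists were of unequal weight: 16 of 39 large subunit factors were lower and 2 higher, 9 of 35 small subunit factors were lower and 2 higher, and among 9 RNA polymerase I factors 1 was lower and 2 were higher.

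Among large subunit factors, Eif6, which keeps the subunits apart until maturation ends, read 6444.9 to 7046.7 up to 60 min and 4487.7 to 5426 later (-0.44 on the log2 scale). Sbds, which helps release Eif6, was lower by 0.32, the export adaptor Nmd3 by 0.36 and the GTPase Gtpbp4 by 0.38. All 4 were without overlap, an order that 11% of all tested genes had. They were named for the largest linear changes of their list in the same arrays, so this separation is not an independent result. Of small subunit factors, the kinase Riok2 was lower by 0.36. Esf1 had the largest linear fall of its list (-1.42 ± 0.42, SE; adjusted p = 0.0136) but was not called across the step (adjusted p = 0.152). Ddx10 (-0.63) and Krr1 (-0.55) also fell in the linear test. Neither was called across the step (adjusted p = 0.111 and 0.109).

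Of 5 snoRNP assembly factors, 2 were lower, Nufip1 (-0.25) and Naf1 (-0.22), and 1 was higher, Ruvbl1 (0.13). Among the RNA polymerase I factors, Taf1d, of its promoter selectivity complex, had the largest linear change and was lower (-0.51, adjusted p = 0.0352), but it was not called across the step (-0.17, adjusted p = 0.366). Znrd1, a polymerase subunit, was called in neither (-0.29 for the line, adjusted p = 0.452). Rrn3, an initiation factor, and the shared subunit Polr1d were higher across the step by 0.14 and 0.10. The 1 lower factor was Taf1c (-0.11), named after its value was seen. Of 7 RNA exosome genes 1 was lower and 1 higher. Myc itself read 2624.9 to 2897.6 up to 60 min and 1941.5 to 2263.5 later, without overlap (-0.40, adjusted p = 0.00000393).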

How the data were processed

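Total RNA was extracted with Trizol and hybridised as biotinylated cRNA to Affymetrix arrays, per the labels. The authors deposited linear intensity values, 1 per probe set and array; no source used here names the summarising software. The analysis took log2(intensity + 16) without normalizing again. Of 22690 probe sets 20393 were named to 1 gene, 691 to several and 1606 to none, and symbols of 20364 were updated with a RefSeq table (GRCm38.p6). Genes under the 40th percentile of mean level (log2 7.829) were left out. The tests used limma 3.58.1 under R 4.3.3 (eBayes with intensity trend, two-sided, Benjamini-Hochberg over 7436 genes within each of 5 tests, threshold 0.05): line, spline, late against early, early against untreated, and step. Precision is limited by the number of arrays (median residual SD about the line 0.0873, log2).

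Members, lists and the step position were chosen with earlier results of these data known. Arrays were valued singly for the members past the linear threshold with the largest change per role and for Ncl, Npm1 and Fbl; other pathway genes were named from the 4 with the largest linear change per list. Steps were tested on simulated data. The simulated shape for the spline was first a plateau, which that test did not recover; a smooth course was then added, and both are kept. Alternatives changed filter, pseudocount, normalization, joining of probe sets, moderation, weights, covariate, time scale and arrays; those of the separation and single-array counts and of each step member were added after the data were seen.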

Additional observations from a re-analysis of the deposited data

Results flagged for a closer look

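Within each window of 4 arrays, the array farthest from the others was compared with Dixon's critical value for 4 values. Of 111 windows tested, 9 passed, and chance passes about 1 in 20. The 80 min array was low in the early window for Nop56 (3298.9, nearest 4102.4), Utp18 (1327.5, nearest 1616.1) and Rrp9 (1111.7, nearest 1446). In the middle window Wdr43 was high at 140 min (1283.7) and Tsr1 low at 100 min (1223.5). In the late window Rrp9 was high at 200 min (1323), Rrs1 was high at 180 min (1890.7), and Pes1 (1573.7) and Noc2l (1024.5) were low at 240 min.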

How the results depend on the processing

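Genes called by the line or the step, with Ncl, Npm1 and Fbl for the line, were followed singly through the alternatives. Of 817 such results, 753 kept direction and side of the threshold, 55 lost the call, 1 gained it and 8 turned the sign. Other genes that were not called, and single genes in the other tests, were not followed this way. Of counts and medians 312 of 347 stayed close and 35 moved. The step count stayed between 10 and 15 lower genes and at 2 higher. Over all tested genes, 7436 to 12394 by filter, it stayed between 1149 and 1870 lower and between 1305 and 1883 higher. With array weights, from a fit that stopped before it converged, late against early called 16 lower and 2 higher and the spline 16. Of all 7436 tested genes these were 1684 lower, 1868 higher and 4080 for the spline. With the Gapdh covariate 5 were lower late and the spline called 4, beside 587 and 1570 of all tested genes. Without the 200 and 220 min arrays 1 was lower late and the spline called 2, beside 366 and 1531. Without an intensity trend 1 was higher late, beside 1146. Leaving out each array gave 1 to 13 lower and 0 to 2 higher late against early. It gave 1 to 2 higher and 8 to 11 lower for the line, and 1 to 9 for the spline. Over all tested genes these ranges were 420 to 1238 lower and 566 to 1469 higher late against early. For the line they were 1311 to 1725 higher and 1012 to 1374 lower, and for the spline 1244 to 2458. The line called 0 higher and 0 lower with the 80 to 240 min arrays only or with the step as a block, with medians of 0.055 and 0.085. Signs turned without the 200 and 220 min arrays for Ncl (0.004) and Npm1 (0.045). With 80 to 240 min only and with the step as a block, they turned for Nop10 (-0.036 and -0.03) and Rrs1 (0.066 and 0.1), and in 1 of these for Tsr1 (0.009) and Utp18 (0.001). The cause was not tested, except that the 80 to 240 min fit holds fewer arrays. No paired analysis was possible because each time holds 1 array. The authors' scaling and 1 array per time limit what these values can show, and a course without tamoxifen was not analysed here.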
